A study of Homo sapiens with 6 samples.

Results

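Expression of the genes that encode proteasome subunits and proteasome assembly factors was compared between K562 cells with and without knockdown of lncRNA-IUR1. The genes were the protein-coding genes whose official symbol starts with PSM, a letter from A to G and a digit. RefSeq lists 50 such genes, and 48 of them had values among the 12486 genes measured. PSMA8, a testis-specific core subunit, and PSMB11, a core subunit of the thymus, were not analysed here. Of the 48 genes, 46 belong to the proteasome or to its assembly. The symbol pattern also found PSMC3IP, which encodes a meiotic recombination factor, and PSME3IP1, which encodes a protein that binds PSME3. These 2 genes are described apart. The rule itself did not use the measured values.

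The 6 RNA-seq libraries were made from K562, a human chronic myeloid leukemia line that carries the Bcr-Abl fusion and has erythroid features. Of these, 3 libraries came from cells that stably expressed a control shRNA against luciferase (sh-luc) and 3 from cells that stably expressed an shRNA against lncRNA-IUR1 (sh-IUR1), which the sample labels call lncRNA-up91. The methods describe 3 independent groups of cells. One library of each group carries no replicate number, and the others are r1 and r2, and values are given in the order unnumbered, r1, r2 throughout. The shRNAs were introduced with lentivirus, no drug treatment is named for these libraries, and the level of lncRNA-IUR1 itself was not analysed here. The depth of the libraries is unknown, because the values are normalised.

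The proteasome degrades proteins that carry ubiquitin chains. Its core particle is a barrel of alpha rings (PSMA genes) and beta rings (PSMB genes), and 3 of the beta subunits carry the protease sites. A regulatory particle caps the barrel. Its base holds a ring of ATPases (PSMC genes) that unfold the substrate, and its lid holds the enzyme that removes ubiquitin (PSMD genes). Activators (PSME genes) can cap the barrel in place of the regulatory particle, and dedicated chaperones (PSMG genes and some PSMD genes) build the particles. The core particle is the target of bortezomib, a drug used in myeloma.

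No difference between sh-IUR1 and sh-luc cells was detected for any of the 48 genes. Values were analysed as log2(FPKM + 1), where FPKM is the number of fragments scaled to transcript length and library size, and all 48 genes passed the minimum mean of 0.1 FPKM. With limma over the 12276 genes tested, 0 of the 48 had an adjusted p-value under 0.05, and 0 genes (0%) were called in the whole table. At an unadjusted p-value under 0.05 the count was also 0 of 48, where the share over all genes tested was 2.65%, with 1.65% higher and 0.994% lower in sh-IUR1. An unmoderated linear model per gene put 3 of the 48, PSMA1, PSMB2 and PSME3, under 0.05 before adjustment, where the share over all genes was 2.80%, and 0 after adjustment. The adjusted p-values of the 48 genes lay between 0.930 and 0.991. In bulk libraries a change in RNA per cell and a change in the share of cells that express a gene cannot be told apart.

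The changes were small and mostly downward. The log2 change was below 0 for 36 of the 48 genes, against 42% of all genes tested, and above 0 for 12, against 58%. Its median was -0.037, against 0.019 over all genes tested. Among the 6314 genes that averaged 10 FPKM or more the share below 0 was 48.8% and the median was 0.0026. All 48 changes were smaller than 0.2 on the log2 scale, a size reached by 5.88% of all genes tested, from -0.14 for PSMB9 to 0.13 for PSMB8. Without the unnumbered sh-luc library the median of the 48 genes was -0.011, with 29 of 48 below 0 and 47.3% of all genes below 0. The groups did not overlap for 3 of the 48 genes, all of them lower in sh-IUR1, where the share of all genes without overlap was 7.07%, with 3.03% lower and 4.04% higher. Without sh-luc r1 the median was -0.067. With 1 library left out, the count without overlap in either direction was 4 without the unnumbered sh-luc library (12.6% of all genes), 10 without sh-luc r1 (22% of all genes) and 5 without sh-luc r2 (14.2%). It was 5 without the unnumbered sh-IUR1 library (11.9%), 12 without sh-IUR1 r1 (14.2%) and 8 without sh-IUR1 r2 (25.2%).

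**Figure D1:**
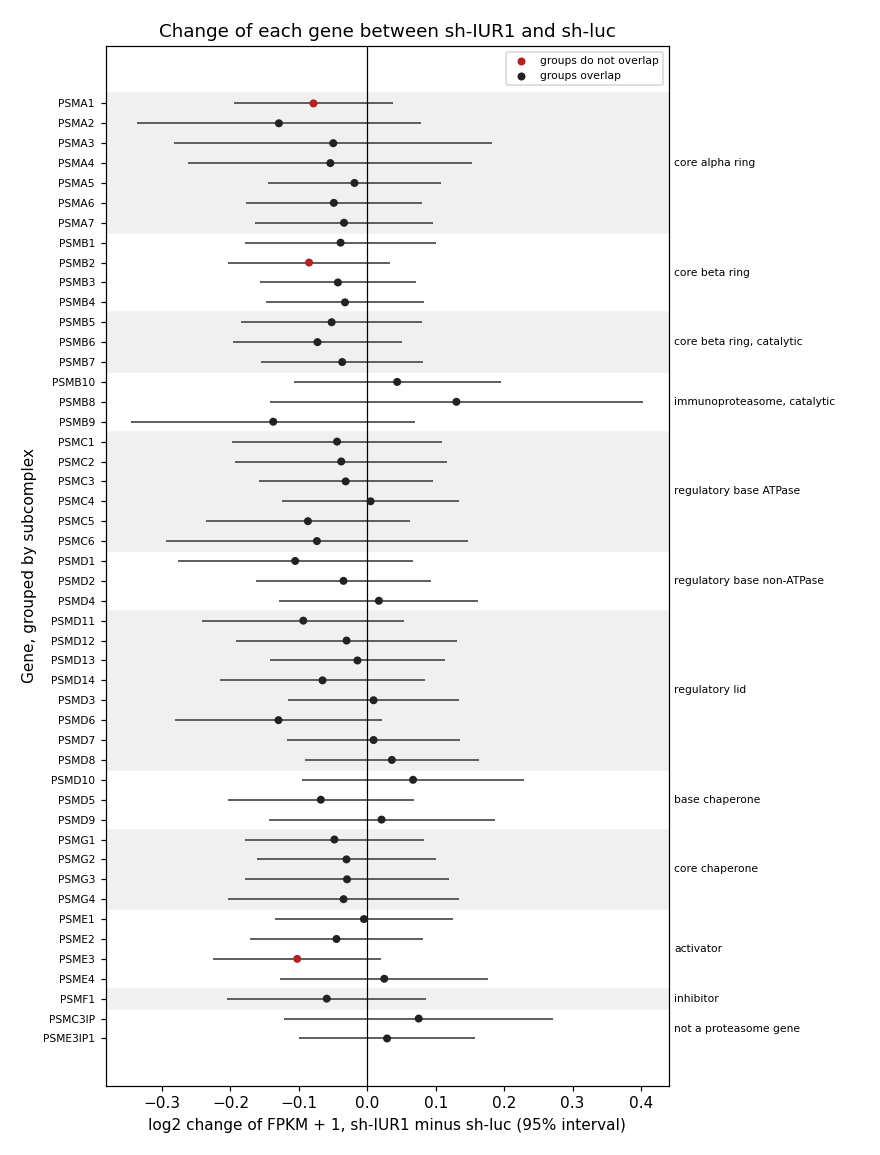
The log2 change of FPKM + 1 (sh-IUR1 minus sh-luc) is plotted for the 48 genes as a point with its 95% interval from limma, grouped by subcomplex, with red points for genes whose groups do not overlap. Every interval contains 0, and the points lie between -0.14 and 0.13.

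The proteasome genes were abundant. Of the 48 genes, 46 averaged 10 FPKM or more, and the median level was 102 FPKM, against 10.6 FPKM for all genes tested. The coefficient of variation of FPKM over the 6 libraries had a median of 4.38% for the 48 genes and of 6.35% for all genes that averaged 10 FPKM or more, whose median level was lower, at 28.4 FPKM. For the 31 constitutive subunits of the core and regulatory particles, the limma 95% intervals of the log2 change reached from -0.34 (PSMA2) to 0.18 (PSMA3) at their widest. Changes outside these bounds were therefore not in the interval of any of the 31 genes. Summed over the 31 genes, the level in sh-luc libraries was 4490, 4192 and 4314 FPKM, and in sh-IUR1 it was 4240, 4190 and 4214 FPKM. The summed level was highest in the unnumbered sh-luc library, and the 2 groups overlapped.

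**Figure D2:**
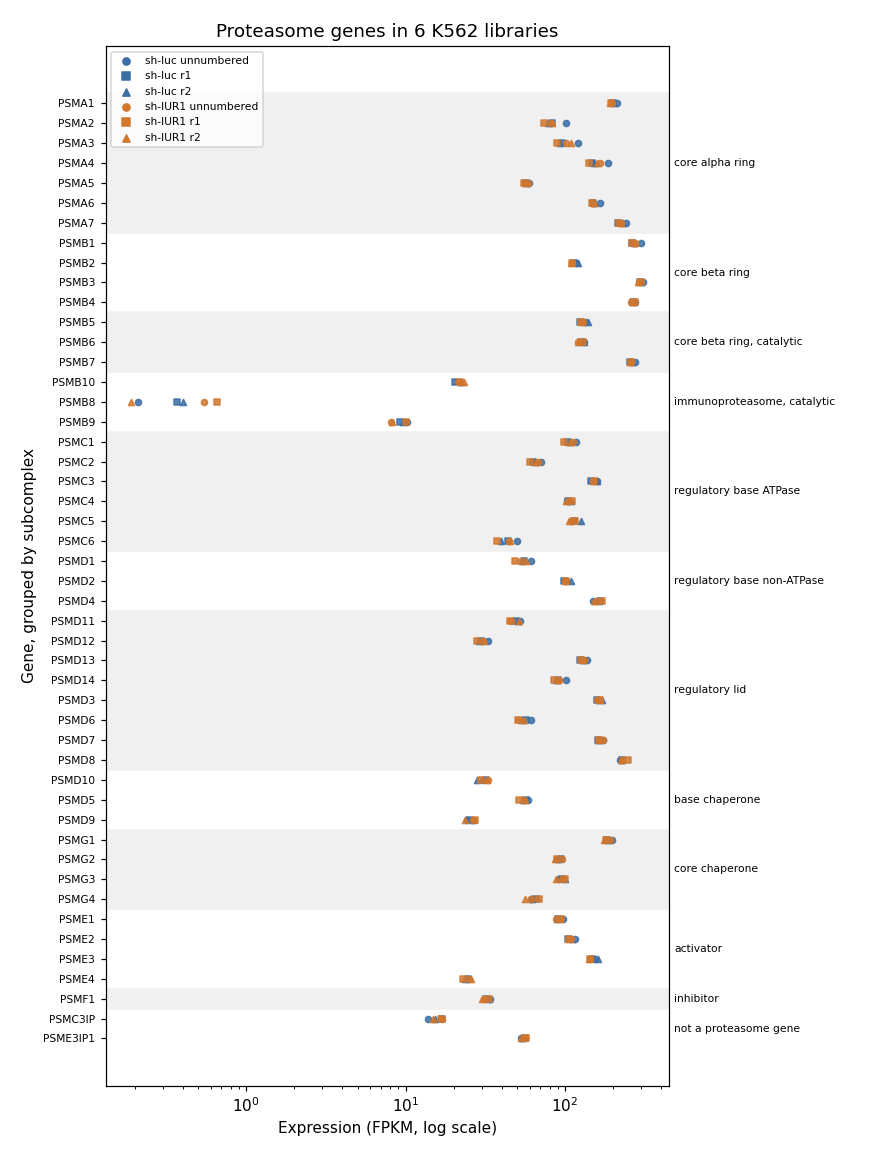
FPKM (log scale) of each of the 48 genes in the 6 libraries, with colour for the group and the marker shape for the library. Most genes lie between 20 and 300 FPKM with the 6 libraries close together, and PSMB8 stands apart below 1 FPKM.

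The 7 alpha ring genes form the outer rings of the core and gate its entrance. All 7 had a log2 change below 0, with a median of -0.050, and none passed the test. Their levels per unit of transcript length ran from 57.3 FPKM for PSMA5 to 226 FPKM for PSMA7, a 3.94-fold range, although the ring holds 1 copy of each protein. PSMA1 was at 212, 200.2 and 203 FPKM in sh-luc and at 196, 194 and 193 FPKM in sh-IUR1 libraries. Each sh-IUR1 library was below each sh-luc library, so the groups did not overlap. The means of PSMA1 were 205 ± 6.33 and 194 ± 1.84 FPKM (SD, n = 3 each), with a log2 change of -0.079 (standard error 0.052, interval -0.19 to 0.038). The adjusted p-value from limma was 0.930, and the two-sided exact permutation test gave p = 0.1, the smallest value that 3 libraries against 3 allow. PSMA2 was at 101, 82.4 and 78.7 FPKM in sh-luc and at 81.6, 73.9 and 82.9 FPKM in sh-IUR1 libraries. PSMA3 was at 121, 96.3 and 93.8 FPKM in sh-luc and at 102, 88.8 and 109 FPKM in sh-IUR1 libraries. In both genes the unnumbered sh-luc library was the highest and sh-IUR1 r1 the lowest. For PSMA3 the other sh-IUR1 libraries were above the other sh-luc libraries, opposite to the order of the group means.

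The standard beta ring genes were the most abundant group. The 7 of them, PSMB1 to PSMB7, had levels from 114 FPKM for PSMB2 to 298 FPKM for PSMB3, a 2.62-fold range. All 7 had a log2 change below 0 (median -0.043), none passed the test, and with the alpha ring this made 14 of 14 standard core genes. PSMB2, a structural beta subunit, was at 116.5, 114 and 121 FPKM in sh-luc and at 111, 111 and 109 FPKM in sh-IUR1 libraries. The groups of PSMB2 did not overlap, with a gap of less than 3 FPKM between the nearest libraries. The log2 change of PSMB2 was -0.085 (standard error 0.053, interval -0.20 to 0.034) with an adjusted p-value of 0.930 from limma.

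The 3 catalytic beta subunits overlapped between the groups. PSMB5, the chymotrypsin-like subunit that bortezomib binds, was at 134, 124 and 139 FPKM in sh-luc and at 129, 125 and 128 FPKM in sh-IUR1 libraries. PSMB6, the caspase-like subunit, was at 132, 127 and 132 FPKM in sh-luc and at 121, 129 and 121 FPKM in sh-IUR1 libraries. PSMB7, the trypsin-like subunit, was at 275, 256 and 265 FPKM in sh-luc and at 258, 261 and 256 FPKM in sh-IUR1 libraries. The sh-IUR1 libraries of PSMB5 and PSMB7 fell inside the sh-luc range. For PSMB6 the unnumbered and r2 sh-IUR1 libraries lay below that range, and r1 lay inside it. The log2 change was -0.052 (interval -0.18 to 0.080) for PSMB5, -0.073 (interval -0.20 to 0.051) for PSMB6 and -0.037 (interval -0.15 to 0.081) for PSMB7. None passed the test, and limma's adjusted p-values were 0.931, 0.930 and 0.940.

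The immunoproteasome subunits PSMB8, PSMB9 and PSMB10 replace PSMB5, PSMB6 and PSMB7 in cells exposed to interferon-gamma and favour peptides for antigen presentation. All 3 were far below their standard counterparts in K562 cells. PSMB8 was at 0.21, 0.37 and 0.40 FPKM in sh-luc and at 0.54, 0.66 and 0.19 FPKM in sh-IUR1 libraries. The highest and the lowest of its 6 values both came from sh-IUR1 libraries. PSMB9 was at 10.2, 9.28 and 9.69 FPKM in sh-luc and at 8.05, 10.04 and 8.28 FPKM in sh-IUR1 libraries. PSMB10 was at 21.96, 20.5 and 22.3 FPKM in sh-luc and at 21.6, 21.8 and 23.4 FPKM in sh-IUR1 libraries. For PSMB9 and PSMB10 the groups overlapped as well. The log2 change was 0.13 (interval -0.14 to 0.40) for PSMB8, -0.14 (interval -0.34 to 0.070) for PSMB9 and 0.044 (interval -0.11 to 0.20) for PSMB10, and none passed the test (adjusted p-values of 0.930, 0.930 and 0.942 from limma). Because 1 FPKM was added before the log, the change of PSMB8 is understated on this scale, and with 0.1 FPKM added it was 0.32.

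The share of the immunoproteasome form in each catalytic pair was then calculated from FPKM. PSMB8 made up 0.247% ± 0.0785 of PSMB8 and PSMB5 together in sh-luc and 0.363% ± 0.194 in sh-IUR1 libraries (SD, n = 3 each). PSMB9 made up 6.95% ± 0.215 of its pair with PSMB6 in sh-luc and 6.61% ± 0.520 in sh-IUR1 libraries. PSMB10 made up 7.52% ± 0.195 of its pair with PSMB7 in sh-luc and 7.94% ± 0.381 in sh-IUR1 libraries. The 3 shares overlapped between groups, and two-sided exact permutation tests gave p = 0.5, 0.4 and 0.3, each 0.5 after Benjamini-Hochberg adjustment over the 3 pairs. The highest share in any library was 8.37%, for PSMB10.

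**Figure D3:**
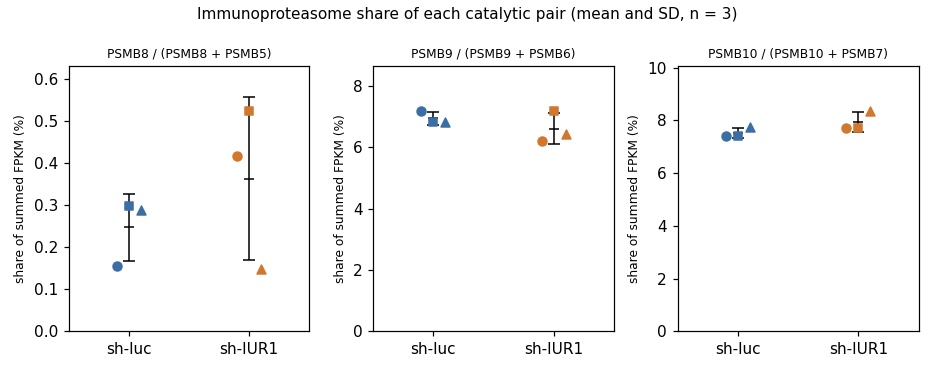
The share of the immunoproteasome form in the summed FPKM of each catalytic pair is plotted per library (points), with the mean and SD of each group (n = 3). The share of PSMB8 stays below 1%, and those of PSMB9 and PSMB10 lie between 6.22% and 8.37%, with overlapping groups in each panel.

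The 6 ATPase genes of the base, PSMC1 to PSMC6, drive unfolding of the substrate. Their levels ran from 43.5 FPKM for PSMC6 to 152 FPKM for PSMC3, a 3.51-fold range, and 5 of the 6 had a log2 change below 0 (median -0.041). None passed the test. PSMC5 had the smallest p-value of the 6 and was at 110, 114 and 127 FPKM in sh-luc and at 109.7, 115 and 105 FPKM in sh-IUR1 libraries. The r2 libraries of the 2 groups lay at the opposite ends of this range, and the other 4 libraries lay between 109.7 and 115 FPKM. The log2 change of PSMC5 was -0.087 (standard error 0.067, interval -0.24 to 0.063) and was -0.029 without sh-luc r2, with an adjusted p-value of 0.930 from limma.

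The remaining subunits of the regulatory particle are encoded by PSMD genes. PSMD1 and PSMD2 are the scaffolds of the base and PSMD4 is a ubiquitin receptor, and 8 further genes encode the lid, including PSMD14, the enzyme that removes ubiquitin, and its partner PSMD7. Lid levels ran from 30.2 FPKM for PSMD12 to 229.7 FPKM for PSMD8, a 7.60-fold range and the widest of the 4 groups of subunits compared here. Of the 8 lid genes, 5 had a log2 change below 0 (median -0.022). PSMD6, a structural lid subunit, had the smallest p-value of all 48 genes. It was at 61.3, 57.0 and 53.9 FPKM in sh-luc and at 51.4, 50.4 and 55.3 FPKM in sh-IUR1 libraries, and sh-IUR1 r2 was above sh-luc r2. The means of PSMD6 were 57.4 ± 3.68 and 52.4 ± 2.57 FPKM (SD, n = 3 each), with a log2 change of -0.13 (standard error 0.068, interval -0.28 to 0.021). The limma p-value was 0.0848 unadjusted and 0.930 adjusted. PSMD14 was at 101, 90.9 and 88.1 FPKM in sh-luc and at 92.1, 85.1 and 90.2 FPKM in sh-IUR1 libraries, again with the unnumbered sh-luc library highest and sh-IUR1 r1 lowest. PSMD4 and PSMD8 were lowest in the unnumbered sh-luc library and highest in sh-IUR1 r1.

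None of the 7 assembly factors passed the test. PSMG1 to PSMG4 encode the chaperones that build the alpha ring, and PSMD5, PSMD9 and PSMD10 encode chaperones of the base. PSMG1 was the most abundant of these, at 198, 184 and 185 FPKM in sh-luc and at 191, 181 and 176 FPKM in sh-IUR1 libraries. Its groups overlapped, with a log2 change of -0.048 (interval -0.18 to 0.082), and limma's adjusted p-value was 0.931. The log2 change was -0.030 for PSMG2, -0.030 for PSMG3 and -0.035 for PSMG4, with adjusted p-values between 0.952 and 0.954. In PSMG1 to PSMG4 the lowest library was sh-IUR1 r2. PSMD10, also known as gankyrin, was at 30.8, 31.7 and 28.0 FPKM in sh-luc and at 33.1, 29.6 and 32.3 FPKM in sh-IUR1 libraries. The log2 change was 0.067 (interval -0.096 to 0.23) for PSMD10, 0.021 (interval -0.14 to 0.19) for PSMD9 and -0.068 (interval -0.20 to 0.068) for PSMD5, and none of the 3 passed the test.

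Among the activators, PSME3 had groups without overlap. PSME3 encodes a nuclear activator that acts without ubiquitin. It was at 153, 147 and 161 FPKM in sh-luc and at 144, 143 and 142 FPKM in sh-IUR1 libraries. The 3 sh-IUR1 libraries were close together and below all sh-luc libraries. The means were 154 ± 6.80 and 143 ± 0.893 FPKM (SD, n = 3 each), with a log2 change of -0.10 (standard error 0.055, interval -0.23 to 0.020). The limma p-value was 0.0926 unadjusted and 0.930 adjusted. PSME1 and PSME2, which form a mixed ring induced by interferon-gamma, had higher levels than the immunoproteasome subunits. PSME1 was at 96.6, 90.3 and 89.5 FPKM in sh-luc and at 88.2, 94.1 and 93.1 FPKM in sh-IUR1 libraries. PSME2 was at 115, 105 and 111 FPKM in sh-luc and at 109, 106 and 105 FPKM in sh-IUR1 libraries. Both overlapped between the groups, with log2 changes of -0.0050 and -0.045, and limma's adjusted p-values were 0.991 and 0.932. PSME4, which encodes a large nuclear activator, had a mean of 24.4 FPKM and a log2 change of 0.025 (interval -0.13 to 0.18). PSMF1, which encodes an inhibitor that binds the core, had a mean of 32.3 FPKM and a log2 change of -0.059 (interval -0.20 to 0.086). Neither PSME4 nor PSMF1 passed the test, with adjusted p-values of 0.962 and 0.930.

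The 2 genes found by the symbol alone moved upward within the spread between libraries. PSMC3IP was at 13.8, 16.9 and 15.3 FPKM in sh-luc and at 16.9, 16.8 and 14.9 FPKM in sh-IUR1 libraries, with a log2 change of 0.075 (interval -0.12 to 0.27), and limma's adjusted p-value was 0.931. PSME3IP1, named here after its values were seen, had a mean of 54.9 FPKM and a log2 change of 0.029. Its groups overlapped.

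Promoter sequences were taken from RefSeq (GRCh38.p14), from 250 bases before to 50 bases after a start position of each gene. They were at hand for 40 of the 46 proteasome genes. For some genes, among them PSMA1, PSMA6 and PSMG4, this start lay inside the RefSeq span of the gene, and other starts were not searched. PSMA7, PSMB1, PSMB6, PSMB7, PSMD4 and PSMG3 were not matched. The transcription factor NFE2L1 raises proteasome genes together through antioxidant response elements, whose core was searched as TGACNNNGC, and NF-Y binds the CCAAT box. Both strands were searched in each case. The promoters of PSMB3, the most abundant member, and of PSMB2 and PSME3, whose groups did not overlap, show how these elements lie, with both kinds of match in capitals. PSMA1, the other gene without overlap, held neither element in the stretch searched and is not shown.

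PSMB3, chr17:38752491-38752790, plus strand: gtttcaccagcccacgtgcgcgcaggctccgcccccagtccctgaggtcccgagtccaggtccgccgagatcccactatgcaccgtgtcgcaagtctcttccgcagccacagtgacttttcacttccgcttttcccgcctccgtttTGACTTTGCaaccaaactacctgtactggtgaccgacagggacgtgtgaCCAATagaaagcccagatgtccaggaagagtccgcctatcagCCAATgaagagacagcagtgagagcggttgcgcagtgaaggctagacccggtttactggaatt
PSMB2, chr1:35641477-35641776, minus strand: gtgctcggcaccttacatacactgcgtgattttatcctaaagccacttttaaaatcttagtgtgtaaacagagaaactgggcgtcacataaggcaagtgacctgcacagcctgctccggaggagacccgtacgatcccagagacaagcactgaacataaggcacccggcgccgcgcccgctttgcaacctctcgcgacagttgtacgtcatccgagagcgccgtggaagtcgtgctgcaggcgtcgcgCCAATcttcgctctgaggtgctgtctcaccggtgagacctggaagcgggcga
PSME3, chr17:42833147-42833446, plus strand: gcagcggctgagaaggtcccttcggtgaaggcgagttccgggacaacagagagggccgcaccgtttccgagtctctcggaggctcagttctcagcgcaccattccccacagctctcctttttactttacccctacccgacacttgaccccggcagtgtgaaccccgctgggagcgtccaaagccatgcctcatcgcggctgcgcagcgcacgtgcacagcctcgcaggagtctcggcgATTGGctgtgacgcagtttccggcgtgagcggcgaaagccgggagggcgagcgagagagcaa

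PSMB3 held 1 antioxidant core at 104 bases before the start and 2 CCAAT boxes at 55 and 13 bases before it. PSMB2 held 1 CCAAT box at 2 bases before the start, PSME3 held 1 at 12 bases before it on the other strand, and neither held the antioxidant core. Over the 40 promoters the antioxidant core was found in 13 (32.5%), against 15.3% of the promoters of the 9939 tested genes that could be matched. The CCAAT box was found in 18 of 40 (45%), against 37.1%, and the GC box GGGCGG in 27 of 40 (67.5%), against 70.2%. The median log2 change was -0.030 for the 13 genes with the antioxidant core and -0.049 for the 27 without it. Among the 18 genes with a CCAAT box the median was -0.049, and among the 22 without it was -0.035. A match of letters is not shown to be a binding site.

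The core of the interferon-stimulated response element, searched on both strands as 2 copies of GAAA with any 2 bases between them, was found in 6 of the 40 promoters (15%), against 2.69% of all matched promoters. The 6 genes were PSMA4, PSMB4, PSMB10, PSME1, PSME2 and PSMG4. PSMB8 and PSMB9, the other immunoproteasome genes, held no match. The stretches around the match in PSMB10, PSME1 and PSME2, the interferon-induced genes with a match, are shown with the match in capitals.

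PSMB10, chr16:67936852-67936881, minus strand: gggtaaaggcGAAAGCGAAAgcaggaagta
PSME1, chr14:24136189-24136218, plus strand: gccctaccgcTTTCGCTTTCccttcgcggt
PSME2, chr14:24146619-24146648, minus strand: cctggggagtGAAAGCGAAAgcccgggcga

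The match lay 21 bases before the start in PSMB10 and 28 bases before it in PSME2, and in PSME1 it lay 5 bases after the start and on the other strand. The gamma-activated sequence TTCNNNGAA was found in 4 of 40 promoters (10%), against 6.15%. These were PSMA2, PSMC4, PSMD3 and PSME3, and no immunoproteasome gene was among them. PSME1 and PSME2 lie 4402 bases apart on chromosome 14, which carries 7 of the 48 genes. PSMB8 and PSMB9 lie 9512 bases apart on chromosome 6. These neighbours did not share a level: PSMB9 had a mean of 9.26 FPKM and PSMB8 of 0.395 FPKM.

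The libraries also differed within each group, and the proteasome genes were more often highest in the unnumbered sh-luc library than the genes at large. Among the 48 genes, 26 (54.2%) had their highest value there, against 24.1% of all genes tested and 29.7% of those that averaged 10 FPKM or more. Only 4 (8.33%) had their lowest value there, against 38.4% of all genes tested. The lowest value was in sh-IUR1 r1 for 16 genes (33.3%), against 22.3% of all genes and 26.6% of those that averaged 10 FPKM or more. It was in sh-IUR1 r2 for 14 genes (29.2%), against 9.77% of all genes. The shares highest in unnumbered sh-luc and lowest in sh-IUR1 r1 varied among the gene lists described below. They ran from 0% for both in the integrated stress list to 80% and 60% in the K562 markers. All 7 alpha ring genes were highest in the unnumbered sh-luc library, and 5 of the 7 were lowest in sh-IUR1 r1. The mean log2(FPKM + 1) of the alpha ring in sh-luc libraries was 7.16, 6.96 and 6.97, compared with 7.003, 6.90 and 7.002 in sh-IUR1. The standard beta subunits were at 7.68, 7.59 and 7.66 in sh-luc and at 7.59, 7.60 and 7.58 in sh-IUR1 libraries. Thus in both rings the unnumbered sh-luc library was the highest, and for the alpha ring the other sh-luc libraries lay within the range of the sh-IUR1 libraries. In the deposited clustering of all genes by their profile over the libraries, 16 of the 48 genes were in cluster 3, which holds 11.7% of all genes and has its highest mean z-score, 1.65, in the unnumbered sh-luc library. Another 11 genes were in cluster 4, which holds 1306 of the 12486 genes and is highest in the unnumbered (1.08) and r2 (0.70) sh-luc libraries.

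**Figure D4:**
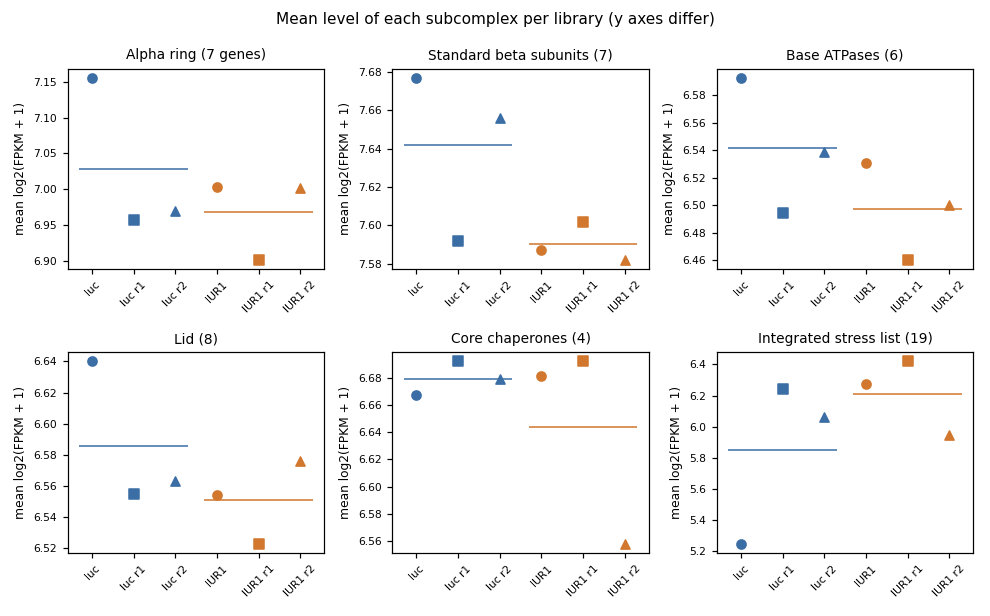
The mean log2(FPKM + 1) of 5 groups of proteasome genes and of the integrated stress list is plotted for each library (blue, sh-luc; orange, sh-IUR1; no suffix, unnumbered), with the group mean as a line. The y axes differ. The alpha ring, beta subunits, ATPases and lid are highest in the unnumbered sh-luc library, in which the stress list is lowest.

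The unnumbered sh-luc library also stood apart in genes of the integrated stress response, the program of ATF4. The mean log2(FPKM + 1) of 19 such genes in sh-luc libraries was 5.25, 6.24 and 6.06, compared with 6.28, 6.42 and 5.95 in sh-IUR1, with the unnumbered sh-luc library lowest. Of the 19 genes, 0 passed the test, at an unadjusted p-value under 0.05 as well (2.65% of all genes tested). All 19 had a log2 change above 0, with a median of 0.34, and 15 reached 0.2, against 58% and 5.88% of all genes tested. SLC7A11, a cystine transporter, and DDIT3, which encodes CHOP, had the smallest p-values, with log2 changes of 0.44 and 0.46. Whether the stress genes and the proteasome genes are linked across these libraries was not tested.

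The difference between libraries of the same group varied with the GC content of the transcript. Across the 31 constitutive subunits, the difference between the unnumbered sh-luc library and the mean of the other sh-luc libraries had a Pearson's r of -0.70 and a Spearman's rho of -0.74 with GC content. The difference between sh-IUR1 r1 and the other sh-IUR1 libraries had an r of 0.77 and a rho of 0.80. Across all genes tested with a known GC content (11923) these values of r were -0.33 and 0.40. The points are genes that share the same libraries and are not independent replicates, so these values are descriptive. The 15 subunits with the lowest GC content (36.4% to 46.2%), among them PSMC6, PSMA2 and PSMA3, had a mean log2(FPKM + 1) of 6.52, 6.36 and 6.35 in sh-luc libraries, compared with 6.37, 6.27 and 6.39 in sh-IUR1. The 15 with the highest GC content (48.6% to 58.5%), among them PSMD3 and PSMD8, averaged 7.36, 7.31 and 7.38 in sh-luc libraries, compared with 7.32, 7.34 and 7.30 in sh-IUR1. Of the low-GC subunits 13 of 15 were highest in the unnumbered sh-luc library and 12 of 15 lowest in sh-IUR1 r1, and of the high-GC subunits 6 and 1. When each library was corrected for GC content and transcript length, an alternative chosen after the data were seen, the median log2 change of the 48 genes was -0.034, with 38 of 48 below 0 and 52.5% of all genes below 0. The part of GC content in the result was not tested.

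Other genes of the ubiquitin-proteasome pathway did not pass the test either, as no gene in the whole table did. Of 13 further subunits, assembly and proteasome-bound factors, 0 had an unadjusted p-value under 0.05, against 2.65% of all genes tested. With so few genes in this and the next lists, a count of 0 says little about them. A log2 change below 0 was found for 8 of the 13, against 42% of all genes tested (median -0.016). SEM1, a small lid subunit, was at 146, 109.5 and 114 FPKM in sh-luc and at 115, 100.3 and 115 FPKM in sh-IUR1 libraries. POMP, which matures the core particle, was at 95.5, 72.6 and 71.7 FPKM in sh-luc and at 73.2, 65.6 and 74.7 FPKM in sh-IUR1 libraries. Both had the unnumbered sh-luc library highest and sh-IUR1 r1 lowest, with log2 changes of -0.15 and -0.16.

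Of 11 genes for transcriptional control of the proteasome, 0 had an unadjusted p-value under 0.05, against 2.65% of all genes tested. The median log2 change was 0.082. The NF-Y subunit NFYA had a log2 change of -0.22 and NFYC of 0.21, each with an adjusted p-value of 0.930 from limma. NFE2L1, named after its values were seen because it is the known activator of proteasome genes, was at 29.1, 40.04 and 41.9 FPKM in sh-luc and at 41.4, 45.2 and 38.2 FPKM in sh-IUR1 libraries. It was lowest in the unnumbered sh-luc library, in which most of the proteasome genes were highest.

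Of 13 ubiquitin shuttles and partners of the unfoldase VCP, 0 had an unadjusted p-value under 0.05, against 2.65% of all genes tested (median log2 change 0.029). The groups did not overlap for 1 of the 13, UBQLN1, where the share of all genes was 7.07%, with 4.04% higher in sh-IUR1. UBQLN1, named after its values were seen, was at 34.7, 34.9 and 35.1 FPKM in sh-luc and at 36.8, 36.1 and 35.6 FPKM in sh-IUR1 libraries. VCP itself was at 117, 111 and 121 FPKM in sh-luc and at 107, 103 and 113 FPKM in sh-IUR1 libraries, a log2 change of -0.11, and FAF2 had one of 0.11. Of 6 ubiquitin and E1 enzyme genes, 0 had an unadjusted p-value under 0.05, against the same 2.65% (median log2 change -0.018). UBA1, the main E1 enzyme of ubiquitin, was at 109, 120 and 126 FPKM in sh-luc and at 125, 128 and 119 FPKM in sh-IUR1 libraries, a log2 change of 0.075 with overlapping groups. Of 12 tested genes of antigen processing, 0 had an unadjusted p-value under 0.05, again against 2.65% (median log2 change 0.027). The log2 change was 0.094 for the peptide transporter TAP1 and 0.10 for IRF1. The other 2 of the 14 genes of this list were not analysed here.

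The cell type was checked with 10 markers of K562 cells, all of which were detected. Their summed level was between 5178 and 6729 FPKM in sh-luc and between 5064 and 5664 FPKM in sh-IUR1 libraries. At an unadjusted p-value under 0.05 the count was 0 of 10, against 2.65% of all genes tested. All 10 had a log2 change below 0 (median -0.095), against 42% of all genes tested. HBE1 and HBG1 were at -0.11 and -0.19. The groups did not overlap for 1 of the 10, HBE1, where the share of all genes was 7.07%, with 3.03% lower in sh-IUR1. Of the 10 markers, 8 were highest in the unnumbered sh-luc library, where their mean log2(FPKM + 1) was 7.76. The r1 (7.48) and r2 (7.55) libraries of sh-luc lay within the sh-IUR1 range of 7.405 to 7.60. Markers of other cell types (6 of 9 tested) summed to between 151 and 173 FPKM in sh-luc and between 159 and 161 FPKM in sh-IUR1 libraries. Of these 6, 0 had an unadjusted p-value under 0.05, against the same 2.65%. Nearly all of this was LYZ and EPCAM, and COL1A1 and CD79A were below 0.4 FPKM in every library. Of the 48 genes, 21 have at least 1 named pseudogene in RefSeq, with 13 for PSMC1, and the span of 20 overlaps another RefSeq gene. How reads were shared among such copies, and whether strand was used, is not given in the sources used here, so the levels of these genes are uncertain to that extent.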

How the data were processed

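RNA-seq values of 3 sh-luc and 3 sh-IUR1 libraries of K562 cells were analysed. Reads were trimmed and mapped to hg38, and the authors deposited values per gene headed FPKM, which their methods call RPKM. A score, each gene's FPKM as a z value over the libraries, its Mfuzz cluster and its membership, a fraction, were also computed by the authors before they deposited the table. Recomputing the z values from FPKM left differences of at most 2.2e-14. The submitters' processing notes name SAMtools 0.1.19. FPKM are not counts, whole reads could not be recovered from them and the depth is unknown, so no count model was used. Genes were matched from Entrez identifiers to symbols (12363 of 12486). Values were tested as log2(FPKM + 1) with limma 3.58.1 (trended eBayes) for genes averaging 0.1 FPKM or more, and p-values were adjusted over all of these (Benjamini-Hochberg). The test was checked on simulated data. Single shares were compared with exact permutation tests. Genes named with full statistics were the catalytic, immunoproteasome, activator, inhibitor and chaperone genes and those with the smallest p-value of their letter group or without overlap, with 2 genes per list, of which 1 is not reported here. The genes and lists were chosen with earlier results of these data known. P-values measure only the spread between these libraries. Alternatives were the pseudocount, filter, scaling, model, replicate block, each library left out and, chosen after seeing the data, a GC and length correction.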

Additional observations from a re-analysis of the deposited data

How the results depend on the processing

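No gene had an adjusted p-value under 0.05 with limma or in any of the 15 alternatives, against 325 genes at an unadjusted p-value under 0.05 in limma. That count was 533 with the replicate block and ran from 158 (without the unnumbered sh-IUR1 library) to 856 (without sh-luc r1), with 711 without sh-IUR1 r2. Between libraries of the same replicate number, deviations from the group means correlated at 0.0444 for unnumbered, 0.385 for r1 and -0.34 for r2. With 3 libraries per group these correlations can neither show nor exclude that the libraries are paired. Of the 325 genes 203 were higher and 122 lower in sh-IUR1, against 134 and 178 with quantile normalization and 216 and 240 with the GC and length correction. Of the 48 proteasome genes, 3 had an unadjusted p-value under 0.05 in the unmoderated model, where the share over all genes was 2.8%. With a library left out the count was from 0 to 1. The gene was PSMD6 without sh-luc r2 (2.42% of all genes), PSMB9 without sh-IUR1 r1 (1.89%) and PSMB8 without sh-IUR1 r2 (5.79%). Genes without overlap numbered 5 with the GC and length correction (8.88% of all genes) and from 4 (12.6%, without the unnumbered sh-luc library) to 12 (14.2%, without sh-IUR1 r1) with a library left out. Between 29 and 39 of the 48 had a log2 change below 0, where the share over all genes ran from 40.6% to 52.5%. Of 344 values of 23 named genes, 333 kept their direction and side of the threshold and 11 turned their direction, in 5 genes. PSME1 was at 0.0028 with quantile normalization and 0.0043 with the GC and length correction, and from -0.026 to 0.029 with a library left out. PSME4 was at -0.0039 with that correction and from -0.011 to 0.072 with a library left out. With a library left out PSMD9 ran from -0.020 to 0.081, PSMG3 from -0.072 to 0.022 and PSMG4 from -0.11 to 0.029. Against the value with all libraries, leaving out 1 library moved the log2 change by over 1.5 times in 19 of the 23 genes. The exceptions were PSMA1, PSMB2, PSMB6 and PSME3. Between the fits with a library left out it ran from -0.098 to -0.017 in PSMB5, from 0.032 to 0.27 in PSMB8 and from -0.13 to -0.029 in PSMC5. In the exceptions it ran from -0.096 to -0.054 (PSMA1), -0.11 to -0.061 (PSMB2), -0.10 to -0.055 (PSMB6) and -0.13 to -0.070 (PSME3). The cause was not tested. Depth behind the FPKM is unknown.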
